A study of Mus musculus with 17 samples.

Results

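Contacts that join the locus control region (LCR) of the mouse beta-globin locus with the adult beta-globin genes were described here, as seen from the enhancer HS2 and from a CTCF site beyond the genes. A contact was taken when the midpoint of 1 NlaIII fragment lay in the LCR (mm9, chromosome 7, 111004000 to 111030000) and that of the other in the adult range (110958000 to 110980000), and fragments within 1 kb of the HS2 viewpoint were left out. The rule uses position alone and no count. It chose 2221 fragment pairs of the 1997429 listed in the 4 tables of the series, 1314 of them among the 331928 pairs of the HS2 table and 907 among the 701591 of the CTCF table. The tables of the alpha-globin viewpoints, with 1505 and 1585 pairs on chromosome 7, list 0 such pairs.

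The LCR is a cluster of enhancers, marked by DNase I hypersensitive sites such as HS2, that drives the beta-globin genes in red cell precursors. In adult mouse erythroid cells it acts on the adult genes, which encode adult beta-globin chains and are named Hbb-bs and Hbb-bt in RefSeq (GRCm38.p6). The embryonic genes Hbb-y and Hbb-bh1, which lie between the LCR and the adult genes, are silent there. Looping of the LCR to the active gene is a textbook case of contact between an enhancer and a promoter.

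The assay was Tri-C, in which chromatin is cut with NlaIII, ligated and enriched for the fragment under study (the viewpoint). A read that holds it with other fragments shows what met on a single allele. The erythroid group was Ter-119+ cells from spleens of female C57Bl6 mice given 3 phenylhydrazine doses of 40 mg/g, as labelled, 12 hours apart and killed after 5 days. Phenylhydrazine destroys red cells, so that the spleen fills with erythroid precursors. The ES group was the E14 embryonic stem cell line of strain 129/Ola, in which the globin loci are inactive per the study's design. Each group had 3 biological replicates, sequenced as 10 erythroid and 7 ES libraries, with technical replicates added up. The labels do not say whether biological replicates are separate animals or cultures, so the p-values measure the spread between these samples, which may be technical. As the groups differ in strain too, effects of strain and of cell type cannot be told apart. Whether both strains carry the same adult genes was not tested. The tables give both strains in mm9 coordinates, and the effect of strain differences on mapping at the Hbb genes was not tested, which bears on every ES value of the gene windows and on which fragments were seen in ES cells. The files hold DNA contacts and no expression, so the labelled cell types could not be checked against marker genes.

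From HS2 the replicates held 222562, 260114 and 464338 counts in erythroid cells and 272616, 84849 and 129113 in ES cells, and from CTCF 658673, 730221 and 1082506 in erythroid cells and 785662, 93686 and 125570 in ES cells. The members made up 1497, 1310 and 2945 in erythroid cells and 630, 110 and 68 in ES cells from HS2, and 777, 689 and 2299 in erythroid cells and 1081, 149 and 38 in ES cells from CTCF, of these counts. A count is a read with no molecular identifier, so it is not an independent molecule: the erythroid first technical replicates and 1 ES library from HS2 had 1.45 to 1.77 counts per listed member pair, and the other libraries 2.90 to 8.13. The shallowest group of members was ES replicate 3 from CTCF, with 8 listed pairs.

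The adult genes were placed in the range by fragments that recur in it. RefSeq (GRCm38.p6) puts Hbb-bs nearer to the LCR and Hbb-bt farther from it, with 14005 bases between their promoters on the minus strand of chromosome 7. Among the deposited fragments, 3 of 122, 102 and 25 bases recur towards both ends of the adult range with equal lengths and in the same order, 14009 bases apart in mm9. A window of 4 kb was set around each place, 110974000 to 110978000 for the proximal gene and 110960000 to 110964000 for the distal gene. No mm9 annotation was used here, so the windows carry positions rather than exons. The 250 bases before each gene's start are shown because the genes share fragments of equal length while their promoters differ: over 258 aligned columns they are 70.5% identical. Capitals mark matches on either strand to TATAAA (the core of many promoters), to CCAAT (a common upstream promoter element), to CACCC (the element bound by the erythroid factor KLF1) and to GATA (the core letters bound by the erythroid factor GATA1). The Hbb-bs promoter lies at chr7:103827929-103828178 and the Hbb-bt promoter at chr7:103813924-103814173 of GRCm38.p6, both on the minus strand and written 5′ to 3′.
Hbb-bs: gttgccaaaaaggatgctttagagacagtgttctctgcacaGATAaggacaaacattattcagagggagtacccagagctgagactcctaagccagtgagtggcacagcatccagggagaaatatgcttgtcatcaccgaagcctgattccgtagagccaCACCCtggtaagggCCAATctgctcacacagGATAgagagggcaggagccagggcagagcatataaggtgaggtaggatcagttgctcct
Hbb-bt: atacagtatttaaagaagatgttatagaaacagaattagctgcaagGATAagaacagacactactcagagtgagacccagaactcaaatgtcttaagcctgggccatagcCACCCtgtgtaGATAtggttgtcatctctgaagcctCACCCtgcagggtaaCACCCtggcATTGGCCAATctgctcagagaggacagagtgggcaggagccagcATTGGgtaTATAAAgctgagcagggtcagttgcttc
In this window the Hbb-bs promoter holds 1 match to CCAAT, 1 match to the KLF1 letters and 2 matches to the GATA1 letters, and no exact match to the first. The Hbb-bt promoter holds 1 match to TATAAA, 3 matches to CCAAT (2 of them on the other strand, 1 directly before the forward one), 3 to the KLF1 letters and 2 to the GATA1 letters. Of the 32851 promoters of the table cut to the same length, 12.4% hold TATAAA on either strand, 33.8% the second motif, 52.01% the KLF1 letters and 53.6% the GATA1 letters. The NlaIII site CATG, searched too, is in neither and in 53.9% of all promoters, so no cut falls in these 250 bases. These matches describe letters and say nothing about binding.

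Seen from HS2, erythroid cells held more contacts of the LCR with the adult genes than ES cells, in every replicate. The erythroid replicates had 6.73, 5.04 and 6.34 of them per 1000 counts of the table, against 2.31, 1.30 and 0.527 in the ES replicates. The groups did not overlap, and the lowest erythroid replicate stood above the highest ES replicate. The mean was 6.03 ± 0.886 in erythroid cells and 1.38 ± 0.895 in ES cells (SD, n = 3 each), a log2 change of 2.13 (SE 0.59, 4.37-fold, adjusted p = 0.0169 in edgeR's quasi-likelihood test over 34 region pairs). The log2 change was 2.90 with TMM and 3.03 in DESeq2, and the log2 ratio of the means was 1.04 when neighbouring listed pairs were joined into separate events. That last value is not a like measure, since pairs that lie denser are joined more readily. How far this lowers it was not tested. The 10 erythroid libraries lay between 4.81 and 8.38 per 1000 and the 7 ES libraries between 0.293 and 2.51. Leaving out ES replicate 2 left a log2 change of 2.08 but ended the call (adjusted p = 0.0634), as did leaving out the fragments that the gene copies share and their neighbours (1.95, adjusted p = 0.0589).

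In the counts as deposited, both gene windows were higher in erythroid cells. For the proximal gene window, which holds the place of Hbb-bs, the LCR pairs reached 2.85, 2.13 and 1.99 per 1000 in the erythroid replicates, against 0.668, 0.471 and 0.116 in the ES replicates. That is a log2 change of 2.46 (SE 0.71, adjusted p = 0.0178 in edgeR). For the distal gene window, which holds the place of Hbb-bt, the erythroid replicates had 1.71, 1.31 and 1.42 per 1000, against 0.602, 0.200 and 0.194 in the ES replicates, with a log2 change of 2.14 (SE 0.74, adjusted p = 0.0448 in edgeR). In neither window did the groups overlap, as was so, with higher erythroid values, for 35.3% of the 34 region pairs of the table. The rest of the adult range was likewise apart, with 2.16, 1.60 and 2.93 per 1000 in erythroid cells and 1.04, 0.625 and 0.217 in ES cells, and it was not tested on its own. The calls of both windows were fragile. The proximal call ended without erythroid replicate 1 (2.29, adjusted p = 0.158) or ES replicate 2 (2.55, adjusted p = 0.0525), and the distal call without any single replicate but ES replicate 1, with log2 changes of 1.86 to 2.22 and adjusted p of 0.0913 to 0.311. It also ended without the fragments that the gene copies share and their neighbours (1.16, adjusted p = 0.388) and with fragments within 3 kb of the viewpoint left out (1.70, adjusted p = 0.147).

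**Figure D1:**
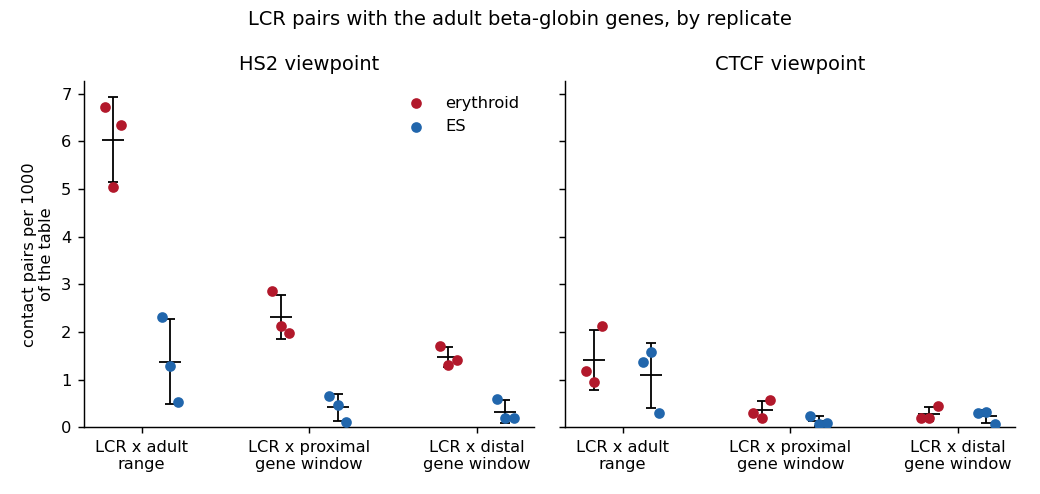
Each point is 1 biological replicate, in contact pairs per 1000 pairs of the table, with the mean and SD (bars) in erythroid cells (red) and ES cells (blue), for the LCR joined with the adult range and with each gene window. From HS2 the lowest erythroid replicate (5.04) lies above the highest ES replicate (2.31) for the adult range, while from CTCF the groups overlap.

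The rise was read against the other region pairs of the HS2 table. Of 34 region pairs tested in edgeR, 8 were called and higher in erythroid cells (23.5%), and all 8 have an end in the adult range, among them the 3 LCR pairs above. These regions are nested, so the 8 are not separate findings. Pairs within the adult range were also higher, with 25.3 ± 5.75 per 1000 in erythroid cells and 6.68 ± 2.47 in ES cells (log2 change 1.92, SE 0.52, adjusted p = 0.0169). Pairs of the LCR with the embryonic range, which holds Hbb-y and Hbb-bh1 and lies nearer to it, had 3.56 ± 1.13 and 3.96 ± 2.00 per 1000 (log2 change -0.16, SE 0.54, adjusted p = 0.911). Pairs within the LCR had 39.4 ± 15.2 and 37.5 ± 22.0 (log2 change 0.07, SE 0.59, adjusted p = 0.931). In erythroid cells the LCR therefore had more pairs with the adult range than with the nearer embryonic range, by 0.80 ± 0.32 on the log2 scale, and in ES cells fewer, at -1.65 ± 0.52 (n = 3 each). That ratio, added after the values were seen, needs no library total. It separated the cell types in every replicate (exact two-sided permutation p = 0.1, the smallest that 3 against 3 allows).

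**Figure D2:**
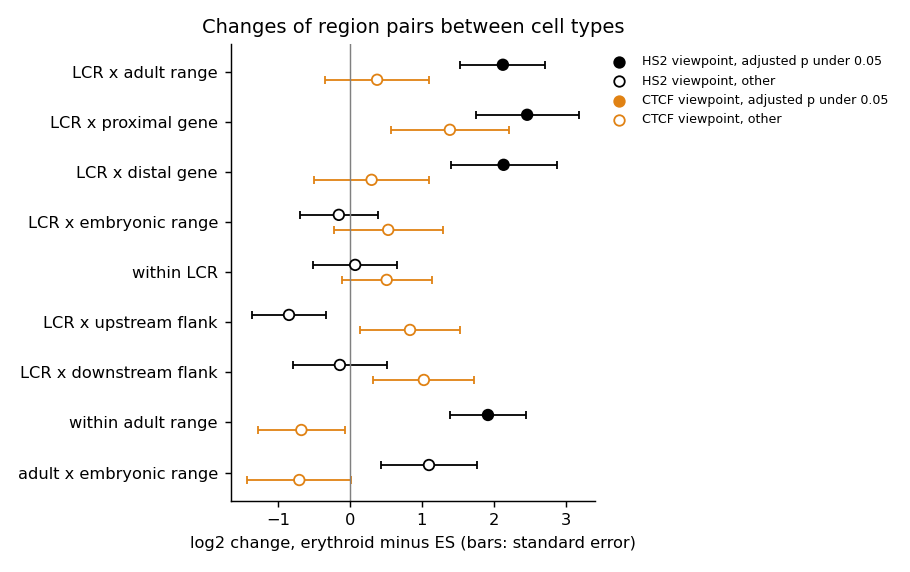
Log2 change between erythroid and ES cells (x axis, with standard error) of 9 region pairs, from HS2 (black) and CTCF (orange); filled points have an adjusted p under 0.05 in edgeR. From HS2 the LCR pairs with the adult range and both gene windows and the pairs within the adult range are called, while the LCR pairs with the embryonic range (-0.16) and within the LCR (0.07) lie near 0.

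The share of the LCR's contacts that went to the adult genes gave the same order. Of all pairs of the 310 kb window with an LCR fragment, 14.4%, 12.1% and 8.44% joined the adult range in the erythroid replicates, against 4.01%, 1.84% and 2.16% in the ES replicates. The groups did not overlap (means 11.7% ± 3.00 and 2.67% ± 1.17, n = 3 each, exact permutation p = 0.1, the smallest possible). With pairs inside the LCR set aside, the shares were 40.7% ± 5.21 in erythroid cells and 10.01% ± 3.25 in ES cells (n = 3 each, exact permutation p = 0.1). On the side of the genes the difference was smaller: the LCR was the partner in 16.7% ± 2.35 of all pairs that the adult range had in erythroid cells and 12.2% ± 3.29 in ES cells, and these groups overlapped (n = 3 each, exact permutation p = 0.2).

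A further comparison set each replicate's LCR and adult pairs against an expected count, made from how often each 2 kb bin was in contact and from the separation of the bins. The log2 ratio of observed to expected was 0.55, 0.38 and 0.52 in the erythroid replicates, against 0.30, 0.88 and -0.28 in the ES replicates. The means, 0.48 ± 0.09 and 0.30 ± 0.58, did not separate the cell types (n = 3 each, exact permutation p = 0.7). For the proximal window they were 0.25 ± 0.18 and -0.09 ± 0.95 (n = 3, exact permutation p = 0.7), and for the distal window -0.02 ± 0.13 and -0.28 ± 0.28 (n = 3, exact permutation p = 0.3). For the embryonic range the log2 ratios were -0.41 ± 0.13 and -0.15 ± 0.01, without overlap (n = 3, exact permutation p = 0.1). The adult difference changed sign without ES replicate 3 (-0.11), while with the first technical replicates alone the proximal window differed by 1.33 (exact permutation p = 0.1 with n = 3 each, the smallest possible) and the distal window by 1.20 (exact permutation p = 0.2).

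Within the LCR, the pairs with the genes were spread over nearly its whole length, with a few bins leading. The 2 kb bin at 111006001 to 111008000, on the side of HS2 that faces the genes, held 16.3% of the erythroid members from HS2. Most of these lay close to the viewpoint. Of the bin's 939 erythroid counts, the fragment at 111007887 to 111007961 held 404 and that at 111007962 to 111008032 held 306. The bin at 111018001 to 111020000, beyond HS2, held 13.4%. In the first of these the erythroid replicates had 1.11, 0.842 and 1.02 pairs per 1000 with the adult range, against 0.165, 0.377 and 0 in the ES replicates. In the other they had 1.21, 0.557 and 0.767, against 0.161, 0 and 0.0465. The groups overlapped in the bins at 20 and 22 kb into the LCR. The bin at the far end of the LCR, at 111028001, had the lowest mean of the 13 in both cell types, 0.0603 ± 0.0217 per 1000 in erythroid cells and 0.00611 ± 0.0106 in ES cells.

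Split by gene, 5 of 37 tested combinations of an LCR bin with the proximal window, the distal window or the stretch between them were called in edgeR, all higher in erythroid cells. That is close to the background, since 14 of all 113 tested combinations in the HS2 table were called and higher (12.4%). The replicates did not overlap and were higher in erythroid cells for 23 of the 37, against 46.0% of all 113, and 11 had an unadjusted p under 0.05, against 31.9% of all. A combination was tested with at least 30 counts over all replicates, and 30 of the 37 had fewer than 30 in ES cells and so passed through their erythroid counts, which favours a higher erythroid value among those tested. That holds for each of the 5 called. The proximal window with the bin at 111006001 had 0.476, 0.377 and 0.310 per 1000 in erythroid replicates, against 0.0257, 0 and 0 in ES replicates (log2 change 5.11, SE 1.39, adjusted p = 0.00715). With the bin at 111018001 it had 0.476, 0.235 and 0.265, against 0.0293, 0 and 0 (log2 change 4.69, SE 1.42, adjusted p = 0.0160). With the bin at 111008001, next to the viewpoint, it had 0.162, 0.158 and 0.226 and no ES count (adjusted p = 0.00653 in edgeR). Taking 3 counts over the ES group as the floor, it was 31.2-fold higher in erythroid cells. That floor takes each count as independent, which a count here is not, so 31.2-fold is not a lower bound.

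The distal window shared the leading bin. With 111006001 it had 0.306, 0.296 and 0.297 per 1000 in erythroid replicates, against 0.0477, 0 and 0 in ES replicates (log2 change 3.97, SE 1.38, adjusted p = 0.0454 in edgeR). As the gene copies share fragments, the windows are not separate observations. Without the fragments of equal length in both copies, neither window was called with this bin (adjusted p = 0.148 for the distal and 0.0656 for the proximal window in edgeR). With the bin at 111026001 the distal window had 0.153, 0.00769 and 0.0948 and no ES count (adjusted p = 0.0484 in edgeR). This was 13.7-fold over the same floor, again not a lower bound. That last call rests on 34, 2 and 44 counts and ended on leaving out any single replicate (adjusted p = 0.0548 to 0.301). It also ended with no count minimum (0.113), without the first technical replicates (0.106) and without the fragments of equal length in both copies (0.131). The proximal window had 34, 2 and 32 erythroid counts with this bin and 4 ES counts, and was not called (adjusted p = 0.196 in edgeR). Log2 changes below 0 were seen for the bin at 20 kb into the LCR with the proximal window (-1.55) and the distal window (-2.33), and for the first bin with the distal window (-0.69), none of which passed the test. How many combinations in the LCR were called moved with the settings, from 0, among others without erythroid replicate 3, to 23 in DESeq2 (39.8% of all 113). It was 1 without erythroid replicate 1 or 2, 18 without ES replicate 1 and 2 without ES replicate 2. For these subsets the share called over all combinations was not taken, so the counts are no result about the members.

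**Figure D3:**
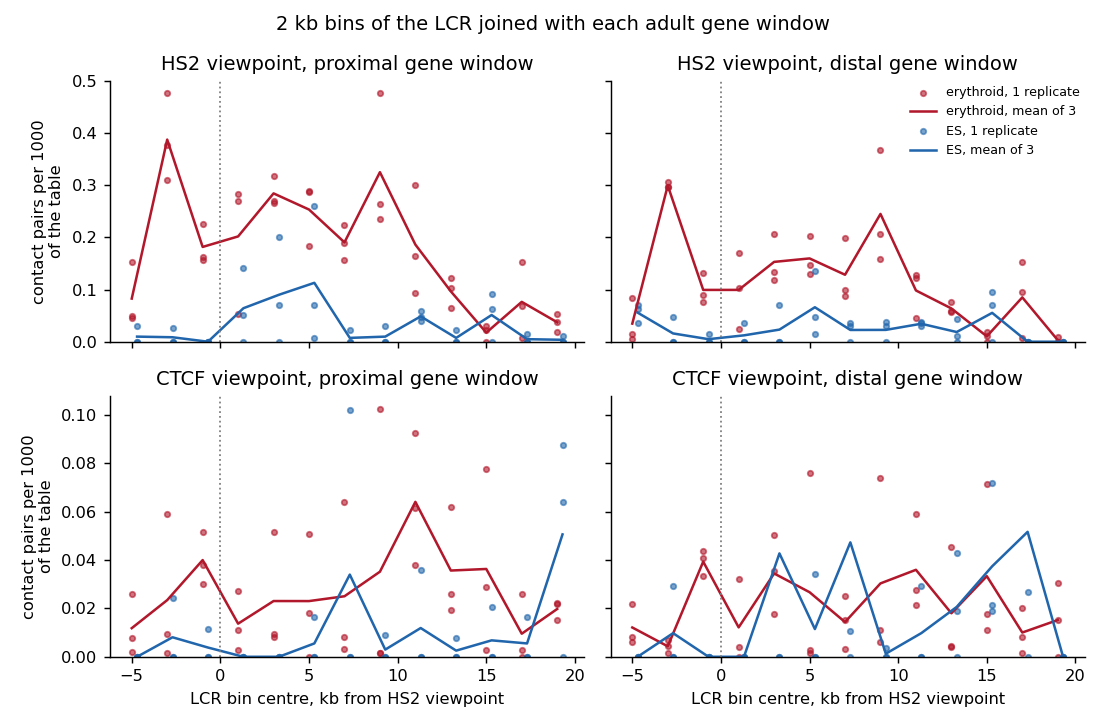
Contact pairs per 1000 pairs of the table (y axis) that join each 2 kb bin of the LCR (x axis, kb from the centre of the HS2 viewpoint, positive away from the genes) with the proximal or the distal gene window; points are replicates and lines means of 3, in erythroid cells (red) and ES cells (blue). From HS2 (upper row) the erythroid lines peak at the same bins for both genes, up to 0.388 per 1000 for the proximal and 0.300 for the distal window in the bin at 111006001, and from CTCF (lower row, another y scale) the groups overlap in most bins. The gene copies share fragments of equal length, so the profiles of the genes are not separate observations.

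On the side of the genes the LCR pairs peaked in both gene windows. Of the erythroid members from HS2, 28.1% fell in the bin at 110976001 to 110978000, in the proximal window, which had 2.32, 1.59 and 1.48 per 1000 in the erythroid replicates, against 0.576, 0.212 and 0.0852 in the ES replicates. The bin at 110962001 to 110964000, in the distal window, held 16.8%, with 1.21, 0.950 and 0.965 per 1000 in erythroid replicates, against 0.415, 0.177 and 0.163 in ES replicates. The groups were apart in both. The bin just outside the proximal window, at 110972001, held 12.8%. The lowest erythroid mean was in the bin at 110968001 between the genes, at 0.0470 ± 0.0330 per 1000 in erythroid cells and 0.0159 ± 0.0275 in ES cells. The first bin of the range, at 110958001, had 0.418, 0.281 and 1.08 per 1000 in erythroid replicates, against 0.172, 0.330 and 0.0310 in ES replicates, and there the groups overlapped.

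**Figure D4:**
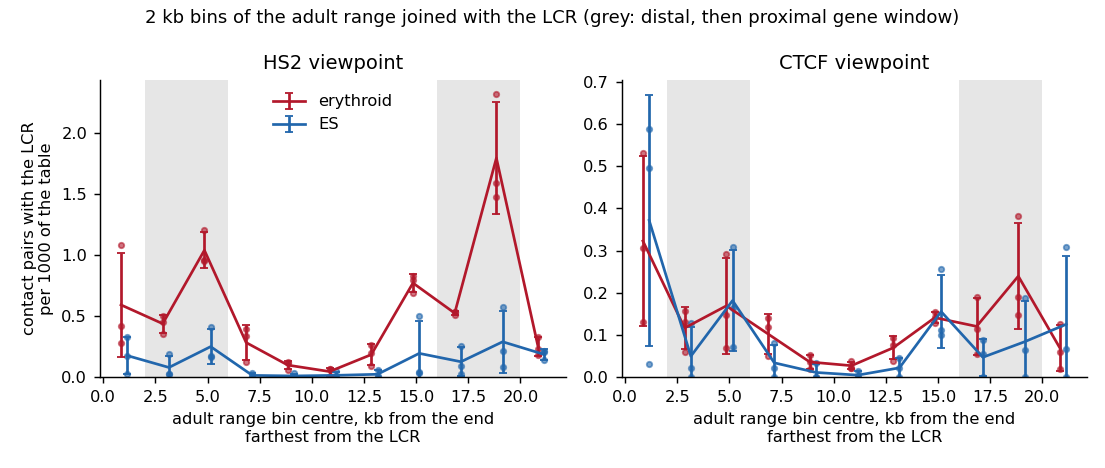
Contact pairs with the LCR per 1000 pairs of the table (y axis) for each 2 kb bin of the adult range (x axis, kb from the end farthest from the LCR); points are replicates, lines and bars the mean and SD in erythroid cells (red) and ES cells (blue), and grey bands mark the distal and proximal gene windows. From HS2 the erythroid means peak in both windows, at 1.80 and 1.04 per 1000, with ES means of 0.291 and 0.251 in the same bins.

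As deposited, the division of the members between the genes overlapped between cell types. Of the pairs in either gene window, 62.5%, 61.9% and 58.3% fell in the proximal window in erythroid replicates, against 52.6%, 70.2% and 37.5% in ES replicates (n = 3 each, exact permutation p = 0.6). With each pair counted once per library the difference was 14.7 points (exact permutation p = 0.1 with n = 3 each, the smallest possible), and without ES replicate 3 it was -0.477 points. Of all members, 65.4% ± 3.26 in erythroid cells and 63.8% ± 16.8 in ES cells had their LCR fragment beyond HS2, on the side away from the genes (n = 3 each, exact permutation p = 0.9). The median separation of both fragments was 44.5 ± 1.29 kb in erythroid cells and 44.01 ± 3.10 kb in ES cells from HS2 (n = 3 each, exact permutation p = 0.9). From HS2 the adult fragments had a median length of 195 ± 53.1 bases in erythroid cells and 129 ± 10.4 bases in ES cells, without overlap of the replicates (n = 3 each, exact permutation p = 0.1). From CTCF these lengths, 201 ± 48.1 and 144 ± 29.7 bases, overlapped (n = 3 each, exact permutation p = 0.3).

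The count of each gene rests partly on fragments that the tables may not tell apart. The 102-base fragment at 110975984 to 110976085 had 327 counts with the LCR over all HS2 libraries and its copy at 110961975 to 110962076 had 332, and of 83 combinations of an LCR fragment and a library seen with either, 78 were seen with both. For the 122-base fragments that was 52 of 56, and for the 25-base fragments 19 of 23. Their neighbours of unequal length, 278 bases at 110976111 and 281 bases at 110962102, shared 57 of 112, and those of 971 and 888 bases shared 42 of 81. Whether a read was listed at both copies was not tested, and the levels of the genes were therefore not tested against each other.

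These 5 fragments and their copies held 59.5% of the erythroid gene window counts and 54.9% of the ES ones from HS2. Without them the proximal share was 79.3%, 78.1% and 70.4% in the erythroid replicates, against 58.9%, 61.5% and 21.7% in the ES replicates, without overlap (not tested). With the same fragments left out, the proximal log2 change was 2.64 (adjusted p = 0.0413 in edgeR), and the distal one was 1.16 and no longer called (adjusted p = 0.388). The call at the proximal gene thus did not need these fragments. The call at the distal gene was not made without them.

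Single fragments that led the members stood near the viewpoint and in the gene windows. They were ranked by listed pairs in erythroid cells, which favours a high erythroid count beside the ES count. Their counts are not scaled to the totals, which differ between the groups. On the LCR side of the HS2 table, the fragment at 111008033 to 111008317 had 336 counts with the adult range in erythroid cells and 13 in ES cells, and the one at 111007887 to 111007961 had 404 and 14. Both lie next to the viewpoint, whose own gap in the table is 111008334 to 111011358. The 1 kb to either side of the viewpoint lies inside this gap, so leaving it out removed no listed fragment. With fragments within 3 kb of the viewpoint left out, the change of LCR and adult pairs was 2.12 (adjusted p = 0.0334 in edgeR), close to the 2.13 with them. The leading fragment farther out, at 111018632 to 111019070, had 141 counts in erythroid cells and 10 in ES cells. On the side of the genes, the fragment at 110976111 to 110976388 led with 356 and 12 counts. Further leading adult fragments had 334 and 17, 262 and 65, 263 and 69, and 195 and 39. Of 75 listed adult fragments, 75 were met in members in erythroid cells and 50 in ES cells, and of 116 LCR fragments, 108 and 69. These numbers grow with depth and were not matched for it: the members held 5752 counts in erythroid cells and 808 in ES cells.

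Fragment pairs rarely recurred. Of the 1314 pairs from HS2, 1041 (79.2%) were listed in 1 library only, and 1197 were seen in erythroid cells, 168 in ES cells and 51 in both. From CTCF, 836 of 907 (92.2%) were listed in 1 library only. Libraries of the same cell type from different biological replicates shared 7.92% of the smaller library's HS2 pairs, those of different cell types 3.98%. At the level of 2 kb bin pairs this left little to test: 0 of the 68 tested pairs from HS2 passed in edgeR (0% of all 654), with 18 at an unadjusted p under 0.05, all higher in erythroid cells, against 13.3% of all 654, and 11 called in DESeq2, against 6.48% of all. Of the 68, 63 had fewer than 30 counts in ES cells and passed the minimum through their erythroid counts. From CTCF 0 of 61 passed (0% of all 1720), with 8 at an unadjusted p under 0.05, 7 of them higher in erythroid cells, against 9.83% of all 1720, and 0 called in DESeq2, against 0.177% of all.

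From the CTCF site, which lies on the far side of the adult genes, the cell types were not separated. The erythroid replicates had 1.18, 0.944 and 2.12 pairs of LCR and adult range per 1000, against 1.38, 1.59 and 0.303 in the ES replicates. The groups overlapped, since the lowest value of all was ES replicate 3 and the next lowest erythroid replicate 2. The log2 change was 0.38 (SE 0.73, adjusted p = 0.794 in edgeR), and it turned to -0.04 without erythroid replicate 3 and to -0.07 without ES replicate 3. A test that does not pass does not show a like level in both cell types.

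Neither gene was called from CTCF, and 0 of all 34 region pairs were (0%). For the proximal window the erythroid replicates had 0.305, 0.203 and 0.573 per 1000, against 0.243, 0.0640 and 0.0876 in the ES replicates (log2 change 1.39, SE 0.82, adjusted p = 0.532 in edgeR). For the distal window they had 0.200, 0.207 and 0.451, against 0.293, 0.331 and 0.0717 (log2 change 0.30, SE 0.80, adjusted p = 0.831 in edgeR). Of the 3 LCR pairs, 0 had an unadjusted p under 0.05, and 0 were called in DESeq2. Of the 35 tested combinations of an LCR bin with the genes or the stretch between them, 0 passed in edgeR (0% of all 252) or DESeq2, and 2 had an unadjusted p under 0.05, against 5.95% of all 252. The replicates were apart and higher in erythroid cells for 9 of the 35, against 9.52% of all 252. Of the 35, 30 had fewer than 30 counts in ES cells.

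The LCR bin with most erythroid members from CTCF was at 111020001 to 111022000, with 14.3%, and had 0.208 ± 0.0600 per 1000 in erythroid cells and 0.0520 ± 0.0572 in ES cells (SD, n = 3 each). There the groups did not overlap, while in every other LCR bin from CTCF they did. The separation of this bin was not tested, and 3 against 3 allows no exact permutation p below 0.1. On the other side, the adult bin nearest to the CTCF site, at 110958001, held 23.2% of the erythroid members and 35.4% of the ES members. The LCR sent 7.93% ± 0.771 of its window pairs to the adult range in erythroid cells and 8.32% ± 3.72 in ES cells (n = 3 each, exact permutation p = 1). The LCR was the partner in 7.24% ± 0.512 of all pairs that the adult range had in erythroid cells and in 3.49% ± 1.42 in ES cells, without overlap (n = 3 each, exact permutation p = 0.1). Against the expected count the proximal window was at 0.08 ± 0.03 in erythroid cells and -1.10 ± 0.91 in ES cells on the log2 scale, again without overlap (n = 3 each, exact permutation p = 0.1). The ES values of that window rest on 191, 6 and 11 counts.

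The same libraries gave both viewpoints, so their levels can be set side by side within a replicate. In erythroid cells members were 5.70, 5.34 and 2.99 times as frequent from HS2 as from CTCF, against 1.68, 0.815 and 1.74 times in ES cells. All 3 erythroid replicates had more from HS2 (log2 ratio 2.17 ± 0.51, n = 3, exact paired permutation p = 0.25, the smallest that 3 pairs allow), and 2 of 3 ES replicates did (0.42 ± 0.62, n = 3, exact paired permutation p = 0.5). The log2 ratio of the erythroid replicates exceeded that of the ES replicates by 1.75, without overlap of the replicates (n = 3 each, exact permutation p = 0.1, the smallest possible). As an HS2 read already holds an LCR fragment, a member from HS2 joins 2 places of the LCR with a gene, while a member from CTCF joins the LCR, a gene and the CTCF site.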

How the data were processed

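Tri-C was run on 17 libraries (10 erythroid, 7 ES) of 3 biological replicates per cell type. The authors deposited counts in whole numbers: their tables, 1 per viewpoint, list pairs of NlaIII fragments with a count in each library. Per the submitters' processing notes, Trim Galore, Bowtie and the build mm9 were used, without versions or roles. For the treatment of duplicates, the sources used here give nothing. Coordinates are mm9 and 1-based unless GRCm38.p6 is named. Fragments listed off chromosome 7 entered the table total only. The members, regions and lists were chosen with earlier results of these data known. Named are the LCR pairs with the adult range and gene windows, the 13 LCR bins with each gene window, and up to 5 called bin pairs without overlap per viewpoint and direction, of which there were 0. The stretch between the windows and the single fragments were chosen after their values were seen.

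Technical replicates were summed. Levels are counts per 1000 of the table total. Counts per region pair, per gene window and 2 kb bin, and per pair of 2 kb bins were tested per viewpoint with edgeR 4.0.16 (R 4.3.3; quasi-likelihood, table total as library size, no normalization factors, at least 30 counts over all replicates, Benjamini-Hochberg adjusted p under 0.05), the log2 change being erythroid minus ES. Its standard error was taken as the size of that change over the root of F. DESeq2 1.42.0 was an alternative, beside other totals, TMM, pairs counted once, subsets of libraries and fragments, and a replicate block. Expected counts came from 200 rounds of iterative scaling per replicate. Single values were put to exact permutation tests, two-sided (scipy 1.17.1; numpy 2.4.6, pandas 2.3.3, Python 3.11.15, figures with matplotlib 3.10.9), for which 3 against 3 allows no p below 0.1. The fits and the expected counts were tested on simulated data. Floors cover counting error only and take each count as independent.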

Additional observations from a re-analysis of the deposited data

How the results depend on the processing

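The log2 change of LCR and adult pairs from HS2 was above 0 under all 20 alternatives (1.74 to 3.03) and passed the threshold in 17. It did not pass with the replicate block (2.34, adjusted p = 0.0629), without the gene copy fragments and neighbours (1.95), or without ES replicate 2; leaving out single replicates gave 1.74 to 2.73. The labels do not say that replicate numbers pair these samples. Same-numbered replicates correlated at -0.12 to 0.13 in the deviations of their 2 kb bins, which does not measure a shared shift in level. Whether same-numbered replicates shared a batch was not tested. With the replicate block the distal window (2.35, adjusted p = 0.0629) and the proximal window (2.74, adjusted p = 0.0554) lost their calls, and 0 bin combinations were called. With the first technical replicates alone the distal window had 2.65 (adjusted p = 0.0943), the proximal one 3.14 (adjusted p = 0.0507), and 0 bin combinations were called. The distal call also ended without the first technical replicates (1.78), with 3 kb around the viewpoint left out (1.70) and without the gene copy fragments and neighbours (1.16). Leaving out single replicates gave 1.86 to 2.91 for the distal and 2.02 to 3.01 for the proximal window.

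Called LCR bin combinations from HS2 numbered 5, and 9 with the chromosome total, 14 with TMM, 23 in DESeq2, 3 with no minimum, 20 with pairs counted once per library (also 20 per window total), 18 once per biological replicate, 2 without fragments of equal length in both copies, 0 without these and their neighbours, and 0 to 18 without single replicates. Called bin pairs numbered 6 with the chromosome total, 7 with TMM, 11 in DESeq2, 4 with pairs counted once per library (7 per window total) and 3 once per biological replicate. The share called over all combinations or bin pairs was taken only as reported and in DESeq2. The number tested can differ by setting, as the count minimum was applied anew. The other counts are therefore no result about the members. The chromosome total moved the median of the 34 HS2 region pairs by 0.69, TMM by 0.61 and DESeq2 by 0.64 on the log2 scale (CTCF, chromosome total, 0.42); LCR and adult pairs stood 1.51, 1.55 and 1.65 above that median, and 1.38 as reported. Region pairs called from HS2 were 8 higher and 0 lower as reported, 8 and 3 with the window total, 12 and 2 with TMM and 13 and 2 in DESeq2.

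No difference in the observed over expected, the proximal share or the share beyond HS2 could pass, and signs turned. From HS2, the difference (erythroid minus ES) in log2 observed over expected of LCR and adult pairs was -0.0176 with pairs counted once and -0.0559 from bin marginals alone (-0.11 to 0.48 without single replicates); the distal window had -0.0626 without the first technical replicates and -0.11 from marginals, the proximal one -0.0046 without the first technical replicates (-0.12 to 0.83). The share beyond HS2 differed by -6.65 points with the first technical replicates, -0.167 without them and -6.62 to 10.1 without single replicates; the proximal share by -0.477 to 15.9. From CTCF, the LCR and adult change was -0.0658 to 0.74 and the distal one -0.19 to 0.61 without single replicates, and -0.30 without the gene copy fragments and neighbours. The share of LCR pairs differed by 2.72 points with pairs counted once, 0.429 with the first technical replicates and -2.53 to 0.771 without single replicates; the share beyond HS2 by -0.532 with pairs counted once and -6.86 without the first technical replicates (0.966 to 6.70 without single replicates). With the first technical replicates the difference in log2 observed over expected was -0.0038 (-0.0427 to 0.47 without single replicates) and -0.49 for the distal window. The ratio of adult to embryonic pairs differed by 0.63 with pairs counted once, 0.27 without the first technical replicates and -0.41 to 0.62 without single replicates. The cause of these turns was not tested. Settings with gene copy neighbours left out, or with pairs counted once per biological replicate or per window total, were chosen after the data had been seen. ES replicates 2 and 3 held 110 and 68 member counts from HS2 and 149 and 38 from CTCF.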

Other observations

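Counted as separate events, that is with listed pairs of a library joined when both ends lay within 1 kb of each other, the HS2 members formed 136, 141 and 222 events in the erythroid replicates and 85, 19 and 18 in the ES replicates. Per 1000 pairs counted once per library, that was 2.06 ± 0.127 in erythroid cells and 1.00 ± 0.407 in ES cells (SD, n = 3 each), without overlap (exact permutation p = 0.1, the smallest possible). The log2 ratio of these means was 1.04, against 2.12 when each listed pair was counted once per library. From CTCF the events were 100, 113 and 214 in erythroid cells and 102, 17 and 7 in ES cells, or 0.745 ± 0.179 and 0.589 ± 0.302 per 1000 (n = 3 each, exact permutation p = 0.6). This counting was chosen after the data had been seen, and what joins neighbouring listed pairs was not tested. Before joining, the listed pairs from HS2 numbered 423, 386 and 713 in the erythroid replicates and 119, 31 and 21 in the ES replicates. Pairs that lie denser are joined more readily, and how far that lowers the ratio of events was not tested.

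From HS2, the share of all counts with both fragments on chromosome 7 was 31.5% ± 9.88 in erythroid cells and 52.7% ± 7.24 in ES cells (n = 3 each, exact permutation p = 0.1), and the share inside the 310 kb window was 12.7% ± 4.69 and 13.2% ± 4.97 (n = 3 each, exact permutation p = 1). Its part in the levels per 1000 was measured by the window total: members numbered 50.8 ± 13.9 per 1000 of the window total in erythroid cells and 9.94 ± 4.63 in ES cells, without overlap.

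From CTCF the members' fragments lay closer together in erythroid cells, with a median separation of 49.9 ± 1.32 kb, against 54.5 ± 2.13 kb in ES cells, without overlap (n = 3 each, exact permutation p = 0.1); ES replicates 2 and 3 rest on 23 and 8 listed pairs.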
